A study of Canis lupus familiaris with 4 samples.

Results

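The miR-30 family was followed in the miRNA cargo of extracellular vesicles (EVs) from a pair of canine mammary carcinoma cell lines. The members were taken as every row of the deposited miRNA table named cfa-mir-30a to cfa-mir-30e, which gave 6 of its 673 rows. The rows cfa-mir-30c-1 and cfa-mir-30c-2 held the same value in every library and were counted once as miR-30c, leaving 5 distinct members: cfa-mir-30a (miR-30a), cfa-mir-30b (miR-30b), miR-30c, cfa-mir-30d (miR-30d) and cfa-mir-30e (miR-30e). All 5 were above 0 in every library. CHMp cells came from the primary tumor and CHMm cells from a metastasis of the same dog, and their EVs are called pTDEs and mTDEs. No treatment of the sequenced cells is described apart from a change to serum-free medium before the EVs were collected. The study also made luciferase-expressing clones of both lines under G418 selection. It does not say whether these clones or the parent cells gave the sequenced EVs. Each line was sequenced as 2 replicate libraries, whose values are given in the order replicate 1, replicate 2. Each tumor stage is therefore represented by 1 cell line of 1 animal. The study calls the replicates biological, but neither it nor the labels say whether they were separate cultures, so the p-values measure only the spread between these libraries, which may be technical.

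miRNAs of the miR-30 family carry the same seed, the stretch near the 5′ end that pairs with target mRNAs, and are therefore predicted to share many targets. They differ toward the 3′ end, where miR-30a, miR-30d and miR-30e resemble each other and miR-30b and miR-30c form a second subgroup. In breast cancer the family is known for restraining tumor-initiating cells and the epithelial-mesenchymal transition, and miR-30a is also known to repress BECN1, a gene of autophagy. In the RefSeq annotation of the dog, the genes lie as neighboring pairs. MIR30B lies beside MIR30D, and both are within the lncRNA gene LOC119864727. MIR30A lies beside MIR30C-2 within the lncRNA gene LOC119874195. MIR30C-1 lies beside MIR30E within NFYC, which encodes a subunit of a CCAAT-binding transcription factor. No other annotated gene lies wholly between the members of a pair.

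Levels are given as counts per 1000000 (CPM) recovered from the deposited whole numbers, which were read as log2(CPM + 1) times a constant of the library. The study describes these numbers as CPM, and each column as deposited totals between 999989 and 1000010. The log form was inferred here from the spacing of the low values and is not stated in the sources. Taken as CPM instead, the deposited values turned the sign of the difference between cell lines for miR-30b, miR-30d and the family total. By the same recovery, the pTDE libraries held 6296519 and 5053540 reads and the mTDE libraries 3457171 and 2330384. The least covered value of the family, miR-30e in mTDE replicate 1, rested on 294 reads, and the largest, miR-30d in the same library, on 201136. CPM are relative to all miRNA reads of a library, so that they show composition and neither the number of vesicles nor the amount of RNA per vesicle. Of 7 miRNAs that mark epithelial cells, 4 were listed at 0 in both pTDE libraries (miR-429, miR-200b, miR-200a and miR-141), whereas all 7 were above 0 in both mTDE libraries.

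miR-30d was the most abundant member in every library and outweighed the other members together. Its row, cfa-mir-30d, was at 22736 and 31009 CPM in pTDE replicates 1 and 2 and at 58179 and 30449 CPM in mTDE replicates 1 and 2. The highest level was that of mTDE replicate 1, while mTDE replicate 2 lay between the pTDE libraries, so that the cell lines overlapped. Among all rows above 0, miR-30d ranked 6 of 342 and 4 of 347 in the pTDE libraries and 4 of 306 and 7 of 332 in the mTDE libraries.

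Among the middle members, cfa-mir-30a was at 2293 and 3990 CPM in pTDE replicates 1 and 2 and at 744 and 1274 CPM in mTDE replicates 1 and 2. Both pTDE libraries lay above both mTDE libraries. On the CPM scale no other member separated the cell lines, but with median-ratio scaling, which divides each library by the median ratio of its rows to their geometric means over the libraries, miR-30c and miR-30e also did. miR-30c was at 2010 and 5067 CPM in the pTDEs and at 1528 and 2349 CPM in the mTDEs, where pTDE replicate 1 fell below mTDE replicate 2. cfa-mir-30b, the genomic neighbor of miR-30d, was at 2217 and 4215 CPM in the pTDEs and at 1537 and 6316 CPM in the mTDEs, so that the mTDE replicates held both its lowest and its highest level. In pTDE replicate 1 these 3 members ran in the order miR-30a, miR-30b, miR-30c, and in pTDE replicate 2 in the opposite order. In both mTDE libraries miR-30a was the lowest of the 3. In mTDE replicate 1 miR-30b and miR-30c did not differ beyond counting error, with 95% Poisson intervals of 1496 to 1579 CPM and 1487 to 1570 CPM.

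miR-30e was the least abundant member in each library. The row cfa-mir-30e was at 193 and 297 CPM in pTDE replicates 1 and 2 and at 85.0 and 264 CPM in mTDE replicates 1 and 2. The value of mTDE replicate 1 stood below the other 3, and mTDE replicate 2 lay between the pTDE libraries. Its 95% Poisson interval was 75.6 to 95.3 CPM, against 243 to 286 CPM in mTDE replicate 2. Such intervals hold for counting error alone, because reads were amplified before sequencing. The authors also merged forward and reverse reads of a sample, so that reads of the same fragment may not be independent. The Poisson and binomial intervals given here treat them as independent.

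**Figure D1:**
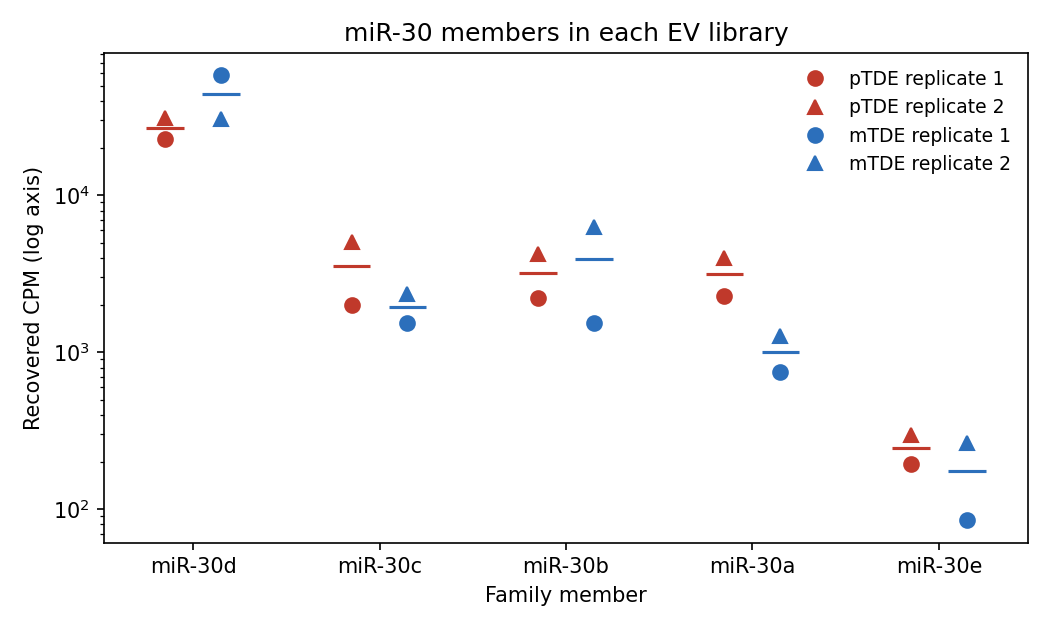
Recovered CPM (log axis) of each miR-30 member in the pTDE (red) and mTDE (blue) libraries; circles are replicate 1, triangles replicate 2 and horizontal lines the mean of 2 libraries. miR-30d lies above all other members in each library, and on this scale only for miR-30a do both red points lie above both blue points (with median-ratio scaling also for miR-30c and miR-30e).

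Whether the members differed between pTDEs and mTDEs was tested with limma on log2(CPM + 1) over 326 rows, those detected in each replicate of either line. After Benjamini-Hochberg adjustment, none of the 5 members had an adjusted p-value under 0.05, where 1.84% of all rows tested did. At an unadjusted limma p-value under 0.05, 1 member, miR-30a, was higher in pTDEs, and 10.1% of all rows tested were higher in pTDEs at that threshold (19.6% in either direction). The same fit on recovered reads with limma voom also called 0 members at the adjusted threshold. 1 member of 5 had both pTDE libraries above both mTDE libraries, where 26.1% of all rows tested did. No member had both pTDE libraries below both mTDE libraries, where 27.3% of all rows did, and 53.4% of rows did not overlap in one direction or the other. With median-ratio scaling the count was 3 of 5 members higher in pTDEs, against 30.7% of all rows, and 0 lower, against 23.9%. Scaled in this way, miR-30c was at 2235 and 5388 in the pTDEs and at 1759 and 1727 in the mTDEs, and miR-30e was at 215 and 316 in the pTDEs and at 97.8 and 194 in the mTDEs.

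The mean of miR-30a was 3142 ± 1200 CPM (SD, n = 2) for pTDEs and 1009 ± 375 CPM for mTDEs. Its log2 fold change, pTDEs over mTDEs, was 1.63 (standard error 0.51, 95% interval 0.28 to 2.99, unadjusted p = 0.028, limma adjusted p = 0.17). Over the 11 alternative fits its limma adjusted p-value ranged from 0.064 to 0.44, all with a higher level in pTDEs. Its unadjusted limma p-value was 0.055, with an interval that included 0, when the variance was moderated without a trend. With a library left out it was 0.066 without pTDE replicate 1, 0.16 without pTDE replicate 2, 0.13 without mTDE replicate 1 and 0.047 without mTDE replicate 2. Over the 11 alternative fits it ranged from 0.0074, with median-ratio scaling, to the 0.055 without a trend. Both pTDE libraries also held more reads than both mTDE libraries, and depth and cell line cannot be told apart. The summed level of 6 distinct muscle miRNAs ran the same way as miR-30a. It was 286 and 389 CPM in the pTDEs and 19.7 and 149 CPM in the mTDEs. Of the 6, 5 and 4 were above 0 in the pTDE libraries but only 1 and 3 in the mTDE libraries. miR-208a was at 0 throughout, and miR-133b had a log2 fold change below 0 (-0.55). The liver miRNA miR-122 was lower in the pTDEs (158 and 98.5 CPM) than in the mTDEs (364 and 570 CPM). The part of the muscle and liver miRNAs in the miR-30a values was not tested. miR-30c averaged 3539 ± 2162 CPM in pTDEs and 1939 ± 580 CPM in mTDEs, with a log2 fold change of 0.75 (95% interval -0.84 to 2.34, limma adjusted p = 0.52) that was 0.085 without pTDE replicate 2. miR-30e, with 245 ± 73.5 and 174 ± 126 CPM, had a log2 fold change of 0.67 (95% interval -1.40 to 2.75, limma adjusted p = 0.66), which turned to -0.14 without mTDE replicate 1.

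miR-30b averaged 3216 ± 1413 CPM in pTDEs and 3926 ± 3379 CPM in mTDEs. Its log2 fold change was -0.028 with a 95% interval of -2.22 to 2.17 (limma adjusted p = 0.99), and the sign turned to 0.21 with median-ratio scaling. miR-30d averaged 26873 ± 5850 CPM in pTDEs and 44314 ± 19608 CPM in mTDEs, with a log2 fold change of -0.66 (95% interval -1.89 to 0.56, limma adjusted p = 0.45). Without mTDE replicate 1 the log2 fold change of miR-30d was -0.20, and without mTDE replicate 2 it was -1.13. The 95% intervals of 4 members included 0, and that of miR-30a did not. The median log2 fold change was 0.67 over the 5 members and -0.025 over all rows tested. Without pTDE replicate 1 these medians were 0.98 and -0.0041, and without pTDE replicate 2 they were 0.085 and -0.069. Without mTDE replicate 1 they were -0.14 and -0.58, and without mTDE replicate 2 they were 1.06 and 0.46.

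**Figure D2:**
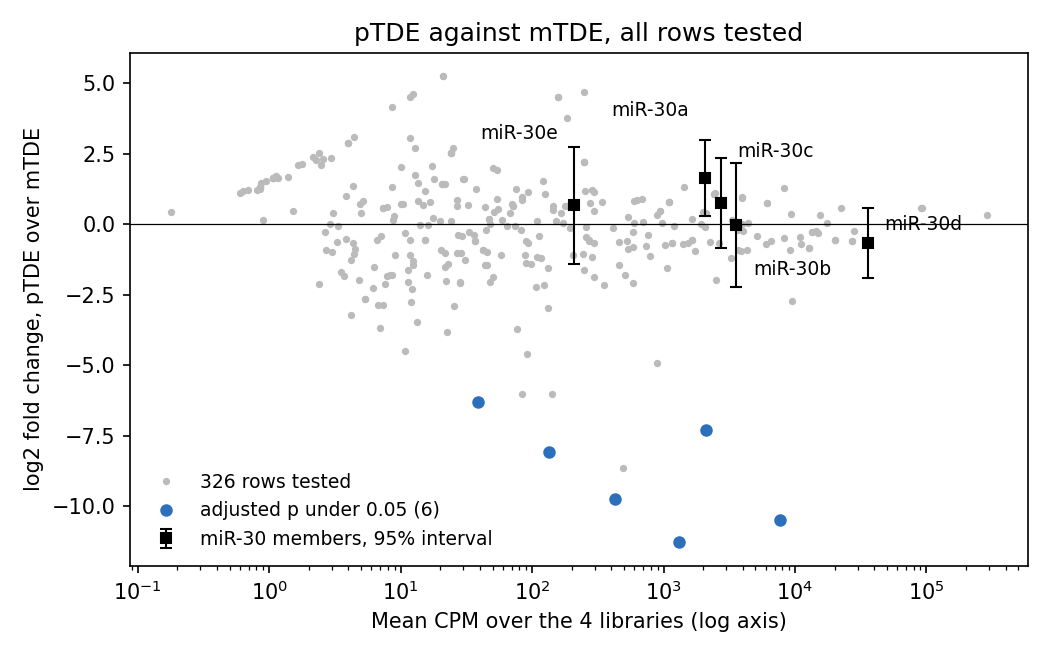
log2 fold change of pTDEs over mTDEs against mean CPM over the 4 libraries (log axis) for the 326 rows tested; blue points are the 6 rows with an adjusted p-value under 0.05, and black squares with bars are the 5 miR-30 members with their 95% intervals. The miR-30 members lie between -0.66 and 1.63, within the cloud of the other rows, and only the bar of miR-30a stays above 0.

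Summed over the distinct members, the family took 2.94% and 4.46% of the CPM in the pTDEs and 6.21% and 4.07% in the mTDEs. This was a mean of 37014 ± 10699 CPM for pTDEs against 51362 ± 15148 CPM for mTDEs (SD, n = 2), and the cell lines overlapped. The log2 ratio of pTDEs over mTDEs was -0.47 (exact two-sided permutation p = 0.67). With 2 libraries against 2, this test cannot give a p-value below 0.33. Without miR-30d the sign of the ratio was the opposite: the remaining members summed to 6713 and 13571 CPM in the pTDEs and to 3895 and 10202 CPM in the mTDEs, a log2 ratio of 0.60 that also overlapped.

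The composition of the family is unaffected by a scaling factor common to all rows of a library. miR-30d made up 77.2% and 69.6% of the family in the pTDEs, and 93.7% and 74.9% in the mTDEs. Its share in mTDE replicate 2 thus fell between those of the pTDE libraries. miR-30a made up 7.79% and 8.95% in the pTDEs and 1.20% and 3.13% in the mTDEs, a difference of 6.20 percentage points between the means. miR-30c held 6.83% and 11.4% of the family in the pTDEs and 2.46% and 5.78% in the mTDEs.

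miR-30b ranged more widely in the mTDEs, at 2.48% and 15.5%, than in the pTDEs, at 7.53% and 9.46%. miR-30e was at 0.656% and 0.666% in the pTDEs and at 0.137% and 0.649% in the mTDEs. In mTDE replicate 2 its exact 95% binomial interval, 0.599% to 0.702%, contained both pTDE shares, so that this difference was not detectable at this depth. The shares of miR-30a, miR-30c and miR-30e did not overlap between the cell lines, which is 3 of 5 members, where 46.3% of all 326 rows did not overlap when set against the same family total. Without mTDE replicate 1 the difference in the share of miR-30e was 0.012 points, and without mTDE replicate 2 it was 0.52 points. Each of these 3 had an exact permutation p of 0.33, the smallest possible, and 0.56 after Benjamini-Hochberg adjustment over the members. The subgroup of miR-30b and miR-30c together took 14.4% and 20.8% in the pTDEs and 4.94% and 21.3% in the mTDEs, so that the cell lines overlapped.

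**Figure D3:**
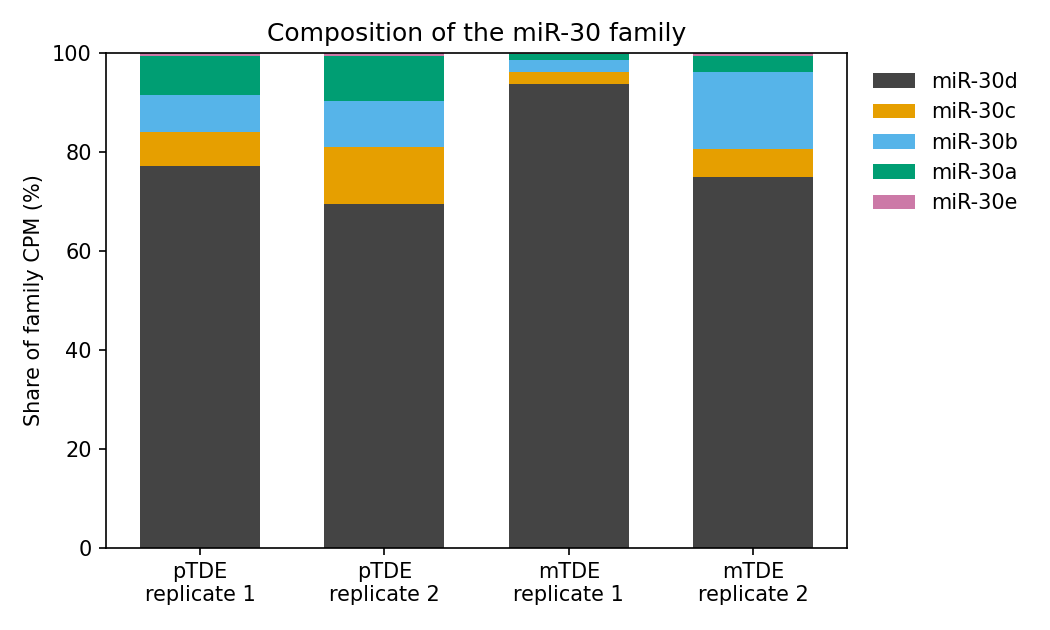
Share of each miR-30 member in the summed CPM of the family (percent, stacked bars) in the 4 libraries. miR-30d fills 69.6% to 93.7% of each bar, and the green part of miR-30a is larger in both pTDE libraries (7.79% and 8.95%) than in both mTDE libraries (1.20% and 3.13%).

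The compositions were compared as the share of the family, in percentage points, that would have to be reassigned to turn one library into another. The pTDE replicates were 7.65 points apart and the mTDE replicates 18.8 points. mTDE replicate 2 was 8.01 points from pTDE replicate 1 and 11.4 points from pTDE replicate 2, nearer to each than to the other mTDE library. mTDE replicate 1 stood 16.5 and 24.2 points from the pTDE libraries. The let-7 family with miR-98, another widely expressed family, had the same 2 mTDE libraries 13.6 points apart and its pTDE libraries 4.83 points apart. For let-7 as well, mTDE replicate 2 lay nearer to both pTDE libraries, at 2.74 and 4.25 points, than to mTDE replicate 1. Its leading member, let-7a, took 56.2% to 67.4% of its family, a smaller part than miR-30d in each library.

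Ratios between members within a library were compared for all 10 pairs. The ratio did not overlap between the cell lines in 6 of the 10 pairs, against 47.8% of all pairs among the 213 distinct rows above 0 in every library. Relative to each of the other 4 members, miR-30a was lower in the mTDE libraries than in the pTDE libraries, and these 4 pairs share the values of miR-30a. The log2 ratio of miR-30a to miR-30d came to -3.31 and -2.96 in the pTDEs, against -6.29 and -4.58 in the mTDEs, a difference of 2.30 between the means that was 1.45 without mTDE replicate 1 and 3.16 without mTDE replicate 2. The log2 ratio of miR-30a to miR-30b was 0.05 and -0.08 in the pTDEs and -1.05 and -2.31 in the mTDEs, so that members of like level in pTDEs stood apart in mTDEs. Against miR-30c, the other gene product of its genomic pair, miR-30a was at 0.19 and -0.34 in the pTDEs and at -1.04 and -0.88 in the mTDEs. Reads of the 2 miR-30c genes cannot be told apart, and only MIR30C-2 lies beside MIR30A.

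The neighbors miR-30b and miR-30d did not keep a fixed ratio. Their log2 ratio was -3.36 and -2.88 in the pTDEs and -5.24 and -2.27 in the mTDEs, with the lowest and the highest value both in mTDEs. miR-30c to miR-30d was at -3.50 and -2.61 in the pTDEs and at -5.25 and -3.70 in the mTDEs, without overlap. miR-30b to miR-30e, at 3.52 and 3.83 in the pTDEs and 4.18 and 4.58 in the mTDEs, was the other pair without miR-30a that did not overlap. Each of the 6 pairs had an exact permutation p of 0.33 and 0.56 after adjustment over the 10 pairs.

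**Figure D4:**
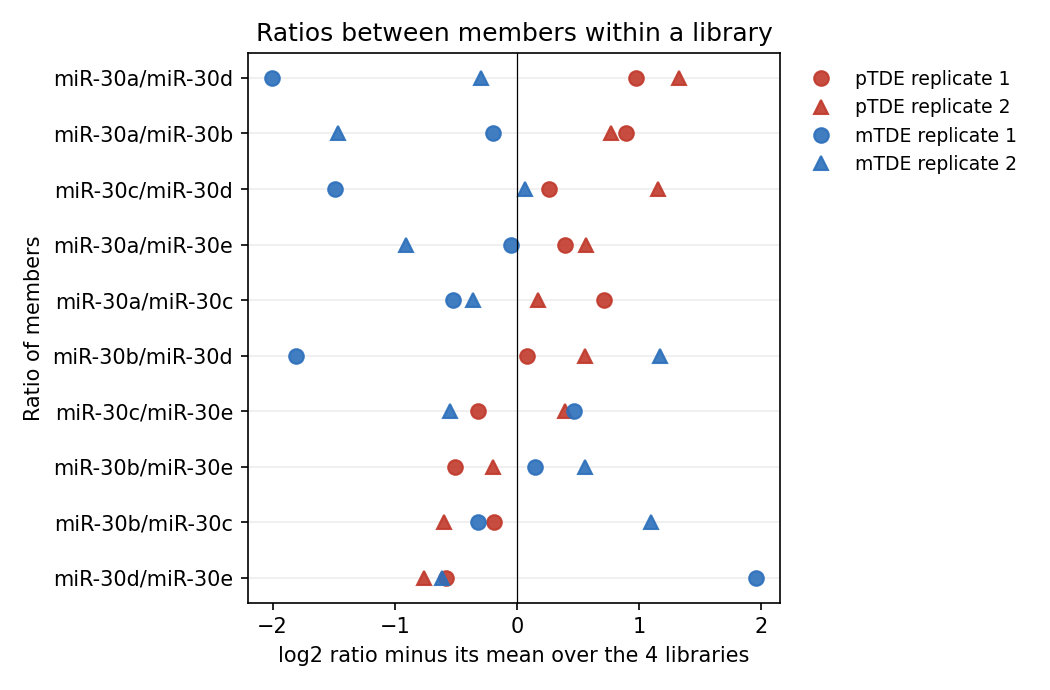
log2 ratio of each pair of miR-30 members minus its mean over the 4 libraries, for pTDE (red) and mTDE (blue) libraries, with circles for replicate 1 and triangles for replicate 2. In the 4 pairs with miR-30a the red points lie to the right of the blue ones, while for miR-30b to miR-30d the blue points lie at both ends.

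On the CPM scale the rows of the mTDE libraries were shifted toward replicate 2, by a median of 0.62 on the log2 scale, against 0.051 in the pTDEs. On that scale miR-30b differed most between replicates, its mTDE libraries being 4.11-fold apart, more than 81.3% of the 240 rows with at least 10 reads in both mTDE libraries. miR-30c had the widest gap in the pTDEs, 2.52-fold, more than 81.6% of 267 such rows there. miR-30d was 1.36-fold apart in the pTDEs and 1.91-fold in the mTDEs. With median-ratio scaling the order turned, with the mTDE libraries 2.99-fold apart for miR-30d and 2.62-fold for miR-30b. The median size of the difference over rows was 0.62 in pTDEs and 0.82 in mTDEs on the log2 scale. On the CPM scale miR-30a, miR-30b, miR-30c and miR-30e were higher in replicate 2 of both cell lines, which is 4 of 5 members, against 37.2% of the 231 rows above 0 in every library. With median-ratio scaling it was 3 of 5, without miR-30c, against 23.8% of these rows. miR-30d was higher in replicate 2 of the pTDEs and lower in replicate 2 of the mTDEs.

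The summed markers of blood cells were also higher in replicate 2 of both cell lines. Of the 5 such miRNAs, miR-144 was at 0 in all libraries, and together they came to 255 and 874 CPM in the pTDEs, against 687 and 2972 CPM in the mTDEs. The erythroid miR-451 was at 123 and 465 CPM in the pTDEs and at 138 and 1423 CPM in the mTDEs. Whether blood-derived RNA had a part in the miR-30 values was not tested.

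The rows most like a member were sought among 172 distinct known miRNAs with at least 10 reads in every library, by the root-mean-square difference of log2(CPM + 1) centered over the 4 libraries. Nearest to miR-30d were miR-128-1 (0.18), miR-183 (0.22) and miR-99b (0.26), where the median over candidates was 0.91. miR-128-1, a miRNA best known from brain, was at 1118 and 1545 CPM in the pTDEs and at 2276 and 1663 CPM in the mTDEs. Nearest to miR-30a were miR-155 (0.18), miR-369 (0.34) and miR-450a (0.36), with a median of 1.14 over candidates. miR-155, known for its roles in immune cells, was at 9027 and 14316 CPM in the pTDEs and at 3708 and 5803 CPM in the mTDEs. Its cell lines did not overlap, which the choice by likeness to miR-30a makes likely beforehand and which is given as a description.

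For comparison with other families, the 9 tested rows of let-7 and miR-98 had log2 fold changes from -0.82 to 0.58, and 0 were called in either direction with limma. The most abundant, let-7a-2, was at 99811 and 121015 CPM in the pTDEs and at 74088 and 73290 CPM in the mTDEs (log2 fold change 0.58, limma adjusted p = 0.35). All 5 rows of the miR-200 family, which keeps cells epithelial, were called lower in pTDEs, but 4 of them were at 0 in both pTDE libraries, so that their fitted fold changes depend on the pseudocount and are not given. Of these 5 calls, 2 remained without pTDE replicate 1, 1 without pTDE replicate 2 and 0 without either mTDE replicate. miR-200c was at 15.1 and 6.33 CPM in the pTDEs and at 14606 and 16067 CPM in the mTDEs (limma adjusted p = 0.0084, and 0.11 and 0.095 without mTDE replicates 1 and 2). A difference of miR-30 from these families was not tested.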

How the data were processed

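Small RNA of EVs from CHMp and CHMm cells was sequenced with 2 libraries per line. The authors trimmed and length-selected reads with cutadapt, merged forward and reverse reads of a sample, and counted annotated and newly predicted miRNAs with miRDeep2 (genome CanFam3.1); versions are not given in the sources used here. The lower length limit lay close to the length of mature miR-30, so shortened reads may have been dropped, which was not examined. The deposited value per library is treated as a score, and the miR-30 rows name no arm, so arms were not separated for this family. The log2 fold changes and log2 CPM, likelihood ratio score, p-values and false discovery rates of the authors' own comparison, also deposited, were not used.

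CPM were recovered as 2^(score/s) - 1, with s per library set so that the library totals 1000000, and reads from the smallest step of low CPM (Python 3.11.15, numpy 2.4.6, pandas 2.3.3, scipy 1.17.1). The study's methods use a count model, but as the values are no counts, limma 3.58.1 (R 4.3.3; eBayes with trend) was fitted to log2(CPM + 1) over 326 rows with Benjamini-Hochberg adjustment. Its prior degrees of freedom were 2.4. Family totals, shares and ratios were tested by exact permutation. The recovery and the fit were tested on simulated data. RefSeq genes (UU_Cfam_GSD_1.0) matched 6 of 6 rows by name; no coordinates are printed because the build differs, and no mature sequence was given. All members were named, the leading row of each other list, and the 3 rows nearest to miR-30d and miR-30a. Members, lists and tests were chosen with earlier results of these data known. Alternatives were other pseudocounts, row filters, scalings and tests, identical rows counted once, known miRNAs only, the deposited values taken as CPM, a replicate block and leaving out each library.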

Additional observations from a re-analysis of the deposited data

How the results depend on the processing

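No member passed an adjusted p-value of 0.05 in any of the 15 other limma fits, of which 4 leave out 1 library and take the spread of the lone library from the other cell line. Over all rows, the calls of 0 higher and 6 lower in pTDEs ranged over the 11 other fits from 0 to 39 higher and from 5 to 11 lower; without either pTDE replicate they were 37 higher and 4 lower, without either mTDE replicate 0 and 0, and median-ratio scaling gave 5 higher and 9 lower and moved the median log2 fold change by 0.25. miR-30a was higher in pTDEs in every fit. With a library left out its log2 fold change ranged from 1.24 to 2.03, that of miR-30b from -1.05 to 0.99, of miR-30c from 0.085 to 1.42, of miR-30d from -1.13 to -0.20 and of miR-30e from -0.14 to 1.48. The sign of miR-30b turned when the deposited values were read as CPM (0.12), under median-ratio scaling (0.21), without pTDE replicate 1 (0.44) and without mTDE replicate 2 (0.99). That of miR-30d turned on the deposited values (0.054), and that of miR-30e without mTDE replicate 1 (-0.14). The cause was not tested.

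The log2 ratio of the family total, -0.47, was 0.18 on the deposited values and 0.60 without miR-30d, and ranged from -0.78 to -0.17 with a library left out. With the deposited values taken directly, the difference in share was 2.11 points for miR-30a, 0.47 for miR-30c and 0.67 for miR-30e, and the difference in log2 ratio was 0.22 for miR-30a to miR-30b, 0.13 to miR-30c, 0.28 to miR-30d and 0.084 to miR-30e, -0.14 for miR-30b to miR-30e and 0.16 for miR-30c to miR-30d. With a library left out, the difference ranged from 5.24 to 7.17 points for the share of miR-30a, from 2.71 to 7.25 for miR-30c and from -20.3 to -1.52 for miR-30d, and the log2 ratio differed by 1.03 to 2.29 for miR-30a to miR-30b, 0.62 to 1.15 to miR-30c, 1.45 to 3.16 to miR-30d and 0.53 to 1.39 to miR-30e, by 0.64 to 2.19 for miR-30c to miR-30d and by -0.91 to -0.50 for miR-30b to miR-30e. The signs turned for the share of miR-30b (-7.04 to 6.02) and the ratios of miR-30b to miR-30d (-0.85 to 2.12) and miR-30c to miR-30e (-0.43 to 0.58). Counting both miR-30c rows made its share differ by 8.73 points.

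The replicate numbers only name libraries. Deviations of replicate 1 correlated at 0.15 between the cell lines over 326 rows, and with the replicate block 0 members were called, and the limma adjusted p of miR-30a was 0.15. In this balanced design the block cannot alter a difference of group means, so the log2 fold change of miR-30a (1.63) and the family ratio (-0.47) are the same by construction.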
